A study of Mus musculus with 8 samples.

Results

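The genes described here serve MHC class I antigen processing: the immunoproteasome subunits Psmb8, Psmb9 and Psmb10, the proteasome activator subunits Psme1 and Psme2, the peptide transporter subunits Tap1 and Tap2, the loading factor Tapbp, the light chain B2m and the heavy chain H2-K1. A member was measured where a probe set of the array carried its symbol and no other, which held for 9 of the 10 genes, on 17 probe sets. Psme2 had no such probe set and was not analysed here. All 9 measured members passed the filter on low values and stood among 8003 tested genes, of 12393 genes with a single-symbol probe set. The members are a list of gene names, chosen with earlier results of these data known.

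RNA came from activated CD8 T cells of OT-1 mice, which carry 1 transgenic receptor for an ovalbumin peptide bound to the product of H2-K1. The 4 donor mice, named A to D, gave T cells, and each mouse's cells were split so that one portion met PD-L1-overexpressing and the other PD-L1-depleted ID8 cells, a mouse ovarian cancer line. The targets of both groups were loaded with the peptide, and after 4 h at 30 T cells per target cell the T cells were collected with magnets. Each mouse thus has 1 array per target, which makes 4 arrays for PD-L1-overexpressing targets and 4 for PD-L1-depleted ones. The labels give no age, sex or target clone, and every T cell in the study met its peptide, so no array shows unstimulated cells.

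Cells cut cytosolic proteins with the proteasome, pump the peptides into the endoplasmic reticulum through the Tap1-Tap2 transporter, and load them there onto a class I heavy chain paired with B2m. Interferon-gamma, a cytokine that activated CD8 T cells make themselves, is known to induce the immunoproteasome subunits, which replace the standard catalytic subunits and favour peptides that fit class I. T cells carry this machinery as most nucleated cells do, so the values below describe T cells together with whatever target RNA was collected alongside.

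Psmb9 and Tap1 are neighbours on chromosome 17 that are transcribed in opposite directions, and they had the widest differences between mice among the members. Psmb8, the next gene beyond Tap1, and B2m, on chromosome 2, are shown beside them because neither passed the test between mice. The sequences are from RefSeq on GRCm38.p6, where 9 of the 10 members have an entry, Tap2 being the other. Each is printed 5′ to 3′ on the plus strand and ends at the base before the first transcribed base of Tap1, Psmb8 or B2m. The first is the whole stretch of 225 bases between the starts of Psmb9 and Tap1, at chr17:34187331-34187555. The second is chr17:34198045-34198194 and the third is chr2:122147537-122147686. Capitals mark matches to 4 motifs searched on both strands: a GC box on the minus strand 176 to 171 bases before the start of Tap1, a STAT site 97 to 89 bases before that of Psmb8, and an interferon regulatory factor half-site 137 to 130 bases before that of B2m.
Psmb9-Tap1 shared stretch: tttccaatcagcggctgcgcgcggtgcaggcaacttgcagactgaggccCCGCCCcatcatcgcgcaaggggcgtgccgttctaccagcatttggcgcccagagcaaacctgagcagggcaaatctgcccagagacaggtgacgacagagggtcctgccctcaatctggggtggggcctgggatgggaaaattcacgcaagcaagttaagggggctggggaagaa
Psmb8 upstream: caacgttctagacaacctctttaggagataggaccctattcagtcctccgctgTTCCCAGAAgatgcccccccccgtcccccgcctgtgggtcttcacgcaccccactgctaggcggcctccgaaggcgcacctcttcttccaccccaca
B2m upstream: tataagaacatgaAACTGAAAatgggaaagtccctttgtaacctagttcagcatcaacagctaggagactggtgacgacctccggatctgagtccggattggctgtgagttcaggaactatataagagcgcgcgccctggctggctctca

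The motifs were a half-site of interferon regulatory factors (AANNGAAA), a site of STAT factors (TTCNNNGAA, which reads the same on both strands), a pattern found in many NF-kappaB sites (GGGNNTTCC) and the GC box (GGGCGG). In the 250 bases before the start of all 32851 RefSeq promoters, these were present in 21.3%, 7.02%, 4.98% and 32.7%, in that order. Among the 9 members with an entry, 5 had the GC box (Psmb9, Psme1, Psme2, Tap1 and Tapbp), where Psmb9 and Tap1 share 1 copy. The interferon regulatory factor half-site was present before B2m and H2-K1, the STAT site before Psmb8, and the NF-kappaB pattern before H2-K1. Psmb10 had none of the 4. A match is a description of letters in this window and not a bound site.

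The first comparison asked whether class I processing genes of the T cells differ after contact with PD-L1-rich or PD-L1-poor targets. None of the 9 members passed, and their differences were small. The estimates ran from 0.00094 (B2m) to 0.045 (Tapbp) on the log2 scale, PD-L1-overexpressing minus PD-L1-depleted, with limma adjusted p = 0.9995 for each. No gene at all was called between targets (0% of the 8003 tested), and 228 tested genes, none of them a member, had an unadjusted p under 0.05. The 95% intervals of the 9 members together ran from -0.077 to 0.10, so that the most distant bound was 1.07-fold.

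Psmb9, the immunoproteasome counterpart of Psmb6, read 12.23, 12.72, 12.39 and 12.75 for mice A to D with PD-L1-overexpressing targets. Its PD-L1-depleted values were 12.25, 12.67, 12.39 and 12.71. The groups overlapped, and mice B and D were high and A and C low with either target. The group means were 12.52 ± 0.25 (PD-L1-overexpressing) and 12.50 ± 0.22 (PD-L1-depleted; SD, n = 4 each), a difference of 0.023 (SE 0.022).

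Psmb8, which takes the place of Psmb5, read 13.40, 13.47, 13.35 and 13.47 in mice A to D with PD-L1-overexpressing targets. Its PD-L1-depleted values were 13.43, 13.42, 13.40 and 13.45. All 8 arrays lay within a narrow band and the groups overlapped, with a difference of 0.0018 (SE 0.022). Psmb10, which takes the place of Psmb7, read 11.20, 11.51, 11.14 and 11.46 with PD-L1-overexpressing targets and 11.26, 11.43, 11.23 and 11.39 with PD-L1-depleted targets, in mice A to D. Mice B and D were high in both groups, and the difference was 0.0032 (SE 0.035). Psme1, a subunit of the cap that opens the proteasome, read 13.04, 13.23, 13.08 and 13.20 with PD-L1-overexpressing targets and 12.95, 13.28, 13.07 and 13.18 with PD-L1-depleted targets. The lowest and the highest of its 8 values were both with PD-L1-depleted targets, and the difference was 0.020 (SE 0.025).

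Tap1, which forms the peptide transporter with Tap2, read 11.74, 12.16, 11.74 and 12.01 in mice A to D with PD-L1-overexpressing targets and 11.74, 12.07, 11.81 and 11.99 with PD-L1-depleted targets. Its partner Tap2 read 11.26, 11.53, 11.10 and 11.44 with PD-L1-overexpressing targets and 11.29, 11.44, 11.16 and 11.41 with PD-L1-depleted targets. In both genes the spread between mice exceeded the gap between a mouse's own arrays. The differences between targets were 0.012 (SE 0.030) for Tap1 and 0.0057 (SE 0.032) for Tap2.

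Tapbp encodes tapasin, which holds empty class I molecules at the transporter, and had the largest estimate of the 9. It read 12.29, 12.33, 12.19 and 12.23 with PD-L1-overexpressing targets and 12.22, 12.30, 12.09 and 12.24 with PD-L1-depleted targets. Mice A, B and C had more of it with PD-L1-overexpressing targets and mouse D less, and the groups overlapped. The means were 12.26 ± 0.061 with PD-L1-overexpressing targets and 12.21 ± 0.090 with depleted ones (SD, n = 4 each). The interval of the difference ran from -0.012 to 0.10, at an unadjusted limma p of 0.108. A second Tapbp probe set, at a mean of 11.46, gave a difference of 0.046 in a fit over all probe sets (limma adjusted p = 0.9994).

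B2m, the light chain of every class I molecule, read 14.68, 14.70, 14.65 and 14.69 with PD-L1-overexpressing targets and 14.66, 14.68, 14.68 and 14.70 with PD-L1-depleted targets. H2-K1, the heavy chain whose product presents the ovalbumin peptide, read 14.67, 14.75, 14.64 and 14.73 with PD-L1-overexpressing targets and 14.61, 14.72, 14.68 and 14.77 with PD-L1-depleted targets. Their differences were 0.00094 (SE 0.015) and 0.0034 (SE 0.019), the first of these being the smallest of the members. Both genes approach the top of the measured scale, 15.24, and differences may be compressed there.

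**Figure D1:**
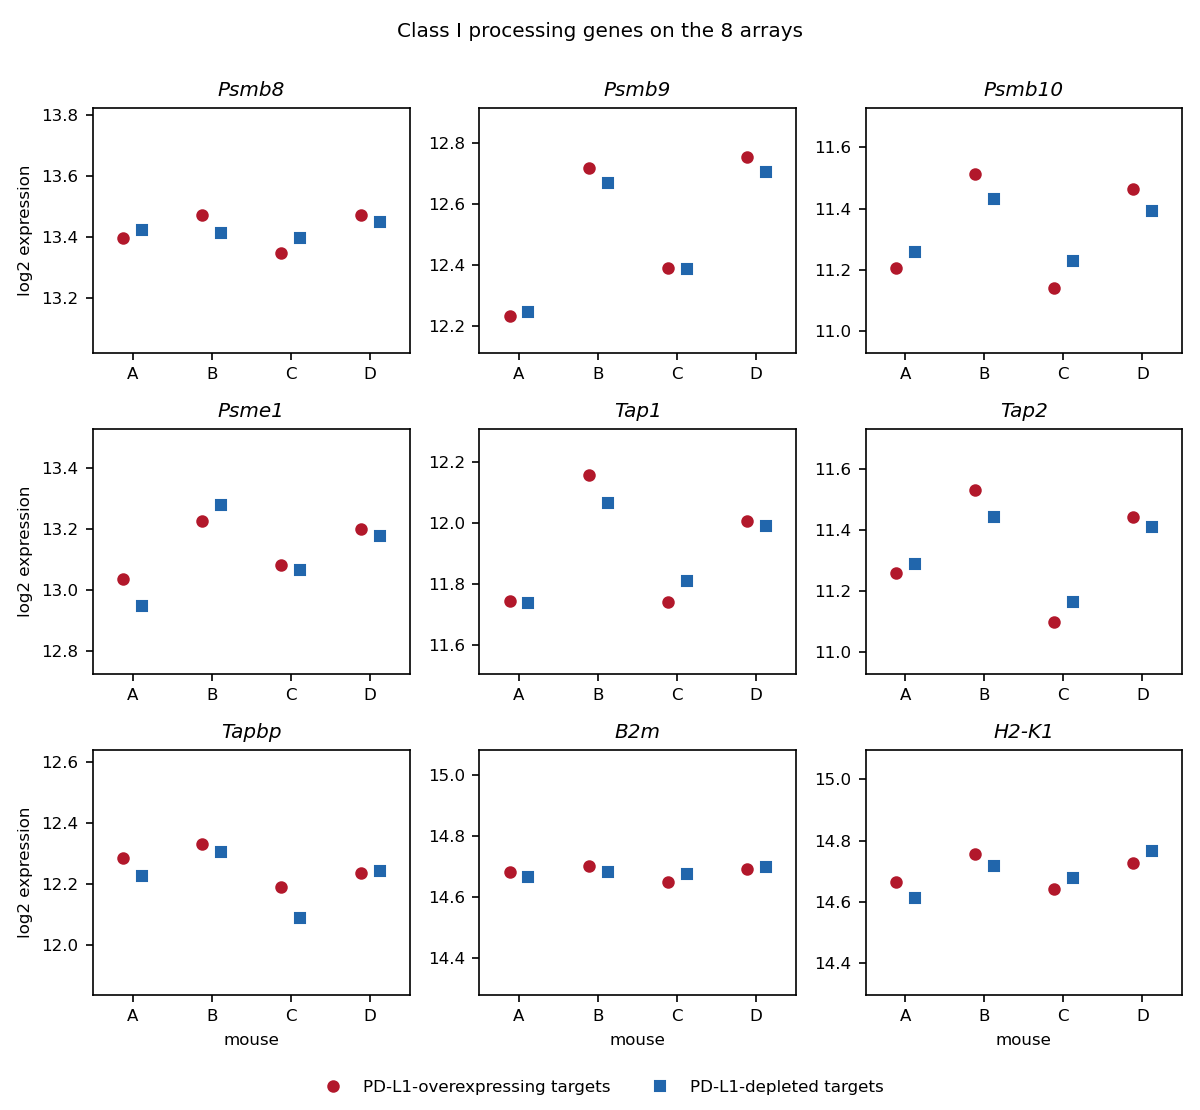
Log2 expression (y axis, 0.8 in height in every panel) of the 9 measured members in mice A to D (x axis); red circles are arrays with PD-L1-overexpressing targets and blue squares arrays with PD-L1-depleted targets, 1 array per point. In Psmb9, Psmb10, Psme1, Tap1 and Tap2 the points of mice B and D lie above those of A and C, while the 2 points of a mouse lie close together.

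All 9 estimates were above 0, as were 53.4% of the estimates of all tested genes, and the median was 0.0057 for the members and 0.0033 for all tested genes. The members share arrays and pathway and are not independent of each other. No member moved the same way in all 4 mice. For Psmb10, Tap2 and Psmb8 the difference was above 0 in mice B and D and below 0 in A and C. The 4 differences of Psmb10 were -0.053, 0.082, -0.088 and 0.072 for mice A to D. Those of Tap2 were -0.031, 0.086, -0.065 and 0.032. Psme1 ran otherwise, at 0.091, -0.052, 0.016 and 0.025.

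**Figure D2:**
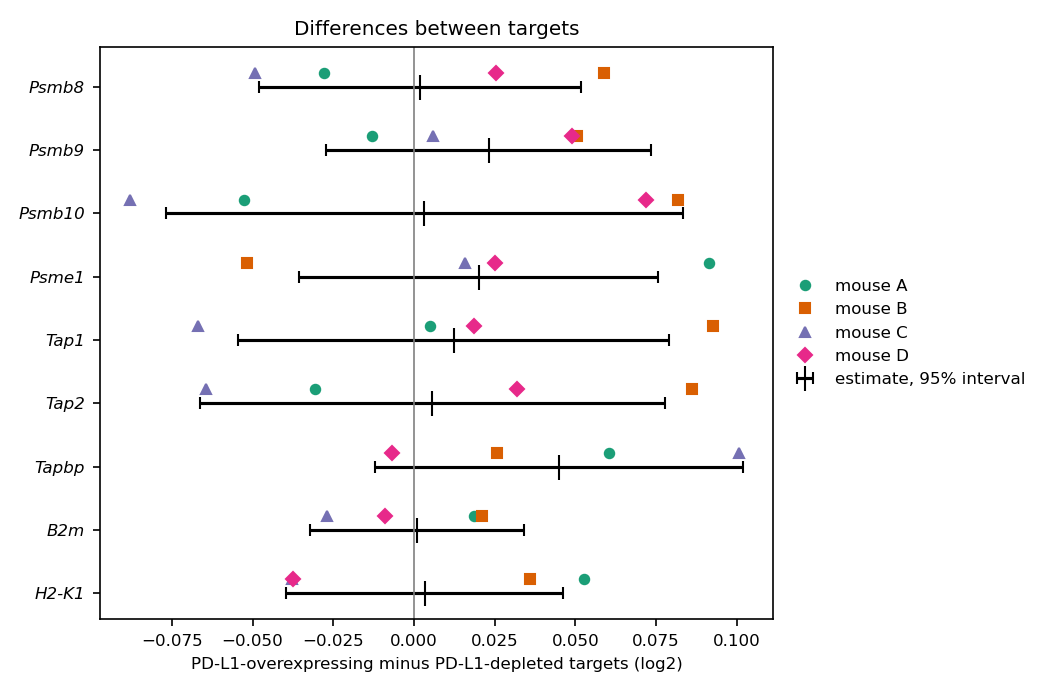
Differences in log2 expression (x axis, PD-L1-overexpressing minus PD-L1-depleted targets) of the 9 members (rows); coloured marks are the 4 mice, and the black bar is the limma estimate with its 95% interval. Every interval holds 0, and every row has mice on both sides of 0.

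Target RNA on the arrays ran in opposite directions among the mice. The mean of the 13 tested tumour cell markers, of 20 on the array, had differences of 1.105, -1.39, 0.932 and 0.955 for mice A to D. Its level ranged from 7.55 to 9.07 on arrays with PD-L1-overexpressing targets and from 7.47 to 8.94 on those with PD-L1-depleted targets. The other 7, among them Wt1 and Krt7, lay below the filter on their means. Single markers did not all follow this mean: 10 of the 13 had an estimate above 0 and 3 below. Cav1 was lower with PD-L1-overexpressing than with PD-L1-depleted targets in mice C (7.54 against 7.96) and D (7.49 against 7.66). The mean of the 9 members differed by 0.011, 0.045, -0.023 and 0.019 in mice A to D. With the tumour marker mean as a covariate 3 of 8003 tested genes passed between targets, and 0 members did. Without mouse B 176 of 8014 tested genes passed, and 0 members did. With shares this small, 0 of 9 says little about the members.

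The other comparison was among the 4 mice. Here 7 of the 9 members passed limma's moderated F test over the 4 mice, namely Psmb9, Tap1, Tap2, Psme1, Psmb10, Tapbp and H2-K1, and Psmb8 and B2m did not. Of all tested genes 29.3% passed. Most members were high in mice B and D and low in A and C, by at most 1.41-fold. Each mouse has 2 arrays from the same T cells, so these p-values set differences among mice against the spread of paired co-cultures. In such bulk samples a change in the share of cells carrying a transcript and a change in its amount per cell cannot be told apart.

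Psmb9 spread most, with means of 12.24, 12.69, 12.39 and 12.73 for mice A to D (2 arrays each). The range was 0.49, and the mouse accounted for 99.2% of its sum of squares (limma F test, adjusted p = 1.68e-05). Mouse A was lowest, C stood above it, and B and D stood together at the top. Tap1 had means of 11.74, 12.11, 11.78 and 11.997 in A to D, a range of 0.37 (limma F test, adjusted p = 0.000600). The order was B, D, C, A, with A and C close together. Tap2 had means of 11.27, 11.49, 11.13 and 11.42, a range of 0.35 (limma F test, adjusted p = 0.00171), and here C was the lowest mouse.

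Psmb10 had means of 11.23, 11.47, 11.18 and 11.43 in mice A to D and a range of 0.29 (limma F test, adjusted p = 0.00537). Psme1 had means of 12.99, 13.25, 13.07 and 13.19 and a range of 0.26 (limma F test, adjusted p = 0.00228). Both genes put B first and D second, with C lowest for Psmb10 and A lowest for Psme1. H2-K1 had a range of 0.11, with means of 14.64, 14.74, 14.66 and 14.75 (limma F test, adjusted p = 0.0284).

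Tapbp followed another order, with means of 12.26, 12.32, 12.14 and 12.24 for mice A to D, a range of 0.18 (limma F test, adjusted p = 0.0254). Mouse C was lowest, and without it the range was 0.079 and the adjusted p of limma's F test was 0.213. Tapbp and H2-K1 also missed the threshold without mouse A (adjusted p = 0.0585 and 0.112), and H2-K1 without mouse D (0.0779). Psmb8 had a range of 0.089 (limma F test, adjusted p = 0.158) and B2m one of 0.033 (adjusted p = 0.480). Psmb8 passed without mouse B (adjusted p = 0.0362 at a range of 0.089).

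In pairs of mice, 6 members were higher in B than in A, namely Psmb9, Psmb10, Psme1, Tap1, Tap2 and H2-K1, where 10.5% of all tested genes were called in that direction. The same 6 were higher in D than in A (11.3% of tested genes). Psmb9 differed most in both pairs, by 0.45 (SE 0.031) between B and A and by 0.49 (SE 0.031) between D and A. Mouse C was lower than B in 6 members, Psmb9, Psmb10, Psme1, Tap1, Tap2 and Tapbp (5.62% of tested genes). Tap2 differed most there, by -0.35 (SE 0.045; limma adjusted p = 0.00201).

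Mouse D was higher than C in 4 members, Psmb9, Psmb10, Tap1 and Tap2 (2.06% of tested genes). Between the low mice, C was higher than A in Psmb9 alone, by 0.15 (limma adjusted p = 0.00947; 9.18% of tested genes were called higher). It was lower than A in Tap2, by -0.14, and in Tapbp, by -0.12 (limma adjusted p = 0.0475 and 0.0431; 16% of tested genes were called lower). Neither was called without mouse D, where 0 members were lower in C than in A. Between the high mice D and B no member passed, while 3.95% of tested genes did in either direction. The largest difference there was that of Tap1, -0.11 (SE 0.042), and the test does not show that D and B are alike.

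The median range between mice was 0.26 for the members and 0.19 for all tested genes. The median share of the sum of squares held by the mouse was 91.6% for the members and 73.8% for all tested genes, while the target held between 0.0156% (Psmb10) and 10.3% (Tapbp) of a member's sum of squares.

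Other probe sets of the members were read in a fit over all probe sets. A second Tap1 probe set, at a mean of 8.02, had a range of 0.27 and did not pass (limma F test, adjusted p = 0.120). The remaining Tap1 probe sets stood at 5.17 and 4.08, below the filter of 6.87, and averaging all 4 took Tap1 to a range of 0.13 (adjusted p = 0.317). The 4 H2-K1 probe sets each passed between mice, with adjusted p from 0.0117 to 0.0473 (limma F test). One of them, at a mean of 9.39, ranged over 0.39 with mouse B highest, at 9.63. All 4 are of a kind that may also bind near-identical class I heavy chain transcripts, so their readings are uncertain as readings of H2-K1 alone. A second B2m probe set ranged over 0.076 (adjusted p = 0.106). The second Tapbp probe set, at a mean of 11.46, ranged over 0.14 and did not pass either (limma F test, adjusted p = 0.150).

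Of 64 other gene symbols listed for the pathway 49 were tested, and 0 of these passed between targets. Between mice 24 of the 49 (49.0%) passed limma's F test, where 29.3% of all tested genes did. The other listed symbols were below the filter or not analysed here, Nrdc being a second symbol of the tested Nrd1. In the standard proteasome group 5 of 10 genes passed between mice. Psmb5 was highest in mouse A, with means of 12.69, 12.52, 12.55 and 12.67 in A to D (adjusted p = 0.00837). The assembly factors Psmg2 and Psmg1 and the nuclear activator Psme3 were also highest in mouse A, with ranges of 0.38, 0.32 and 0.27. The fifth, the assembly factor Pomp, was highest in D and C, with means of 12.06, 12.06, 12.17 and 12.18 for mice A to D (limma F test, adjusted p = 0.0437). Psmb7 ranged over 0.13 and did not pass (adjusted p = 0.216). None of the 6 tested cytosolic peptidases passed, with ranges of 0.23 for Thop1, 0.16 for Nrd1, 0.13 for Tpp2, 0.13 for Lap3 and 0.070 for Npepps.

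Among 8 genes of trimming and folding in the endoplasmic reticulum 4 passed between mice, where 29.3% of all tested genes did. Tapbpl, a relative of tapasin that edits peptides, had means of 11.40, 11.36, 11.06 and 11.18 in mice A to D (limma F test, adjusted p = 0.00116), so that A and B were high. Erap1, which trims peptides to class I length, had means of 10.01, 9.95, 9.78 and 9.88, also with A highest. The chaperones Pdia3 and Hspa5 were highest in mouse D, at 13.22 and 13.35. Erap1 had the smallest unadjusted p between targets of this group (0.0417), with a difference of 0.079 (SE 0.033) that did not pass over all genes.

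Other class I and class I-like heavy chains passed between mice in 5 of 8 cases, with a median range of 0.30. For all tested genes the share was 29.3% and the median range 0.19. Cd1d1, a lipid-presenting relative, had means of 7.91, 8.68, 8.37 and 8.72 in mice A to D (limma F test, adjusted p = 6.8e-05). H2-Q10 had means of 8.87, 9.70, 9.19 and 9.33 (adjusted p = 6.9e-05) and H2-Q2 means of 7.48, 8.40, 7.24 and 7.81 (adjusted p = 0.000955). H2-M3, which presents formylated peptides, had means of 10.96, 11.18, 11.07 and 11.30. Mice B and D held the upper places in these 4 genes. The fifth that passed, H2-D1, did not follow, with means of 14.47, 14.47, 14.38 and 14.45 (adjusted p = 0.0365) and mouse C lowest. Its probe set is of the same kind as those of H2-K1 and may also bind near-identical transcripts. At a mean of 14.44 it also approaches the top of the scale. The Cd1d1 probe set, too, is of a kind that may bind related transcripts. Pomp and H2-D1 were added after their values were seen. H2-Bl and Mr1 did not pass between mice, and their differences between targets were 0.11 (SE 0.064) and 0.044 (SE 0.069).

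Among regulators of the class I genes 10 of 17 passed between mice, where 29.3% of all tested genes did. Irf1, a transcription factor of the interferon response, had means of 9.87, 10.39, 10.06 and 10.21 for mice A to D (limma F test, adjusted p = 0.000382). Ifngr1, a chain of the interferon-gamma receptor, had means of 10.23, 10.97, 10.62 and 10.80 (adjusted p = 5.2e-05). Both put the mice in the order B, D, C, A, as Tap1 and Psme1 did. Ifng itself did not follow that order, at 13.10, 13.13, 13.28 and 12.88 in A to D (adjusted p = 0.00103), with D lowest. Irf8 was highest in B, at 11.04, and lowest in D, at 10.75. The second receptor chain Ifngr2 was highest in A, at 7.48, and lowest in D, at 7.18, and differed by 0.12 (SE 0.060) between targets without passing. Nfyc ranged over 0.097 and did not pass.

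**Figure D3:**
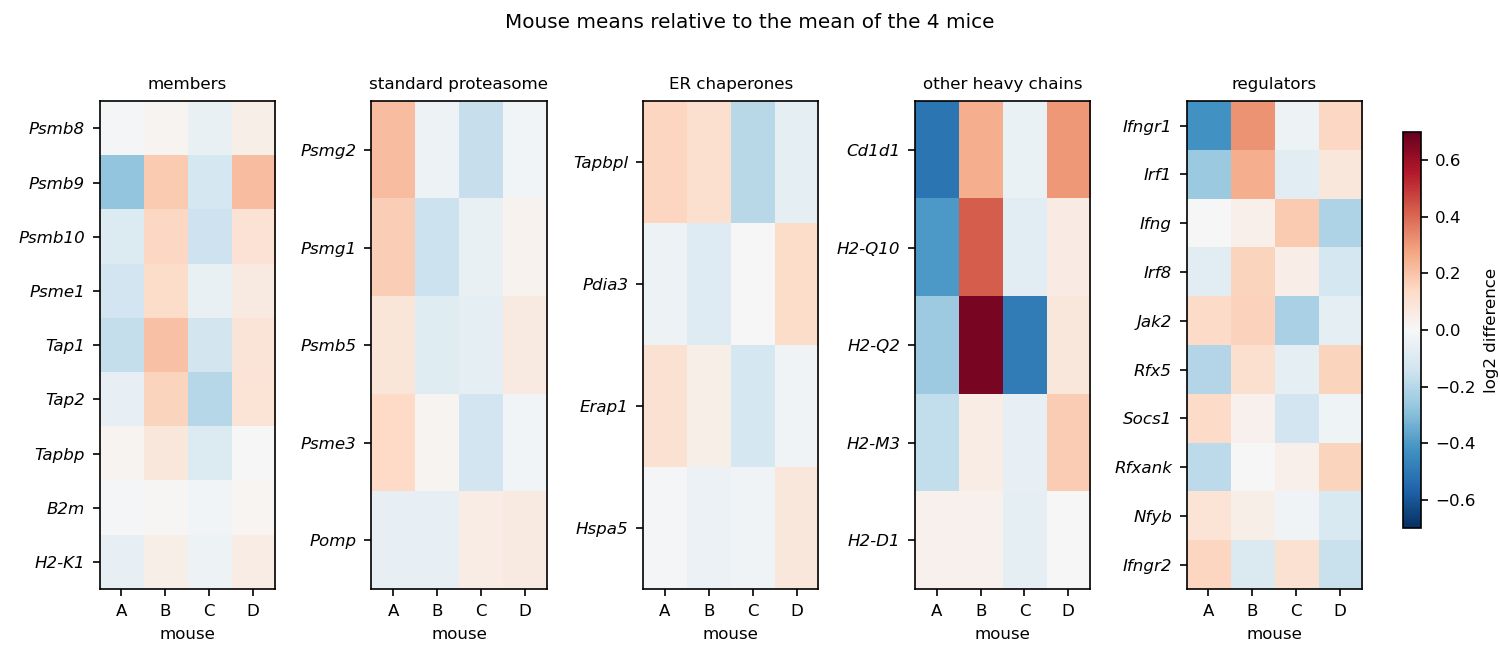
Mean log2 expression of each mouse minus the mean of the 4 mice (colour, in log2 units) for the 9 members and for the genes of the pathway lists that passed limma's F test between mice (rows), in mice A to D (columns); none of the cytosolic peptidases passed. Red cells in columns B and D and blue cells in A and C mark most members and heavy chains, while Psmb5, Psmg1 and Psmg2 are highest in mouse A.

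The genes whose 8 array values, centred on their own mean, lay closest to the centred mean of the members were Cd2bp2 (mean absolute difference 0.0146), Il12rb1 (0.0166), Poli (0.0201), Bst2 (0.0223), Cyba (0.0245), Pex16 (0.0245), Pigx (0.0293), Lrrc8c (0.0298), Riok1 (0.0299) and Fth1 (0.0310). The measure covers 8 arrays of 4 mice and says nothing of function. Bst2, an interferon-inducible membrane protein gene, had mouse means of 11.41, 11.62, 11.39 and 11.58 in A to D. The members themselves lay between 0.0362 (Psmb10) and 0.108 (Psmb9) from their mean, since Psmb9 spread wider and B2m narrower than it.

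The mean of 8 tested markers listed for CD8 T cells was high on every array. It ran from 12.40 to 12.48 where targets overexpressed PD-L1 and from 12.38 to 12.48 where they were depleted of it. Apart from Cd8a and Cd8b1, the 8 are not particular to CD8 T cells. Single markers moved more than the mean of the 8: 6 of the 8 passed limma's F test between mice, with a median range of 0.21. For all tested genes the share that passed was 29.3% and the median range 0.19. By mouse means Cd247 was highest in D and B and lowest in A, while Cd2 was highest in A and lowest in D. The array holds 11 markers of B cells, of which 4 passed the filter: H2-Aa, H2-Ab1, Cd74 and Ighm, and the first 3 are class II pathway genes. All 4 passed limma's F test between mice, where 29.3% of all tested genes did. With PD-L1-overexpressing targets their mean was 10.02, 11.36, 10.19 and 10.92 for mice A to D, and with PD-L1-depleted targets 10.05, 11.29, 10.28 and 10.96. The other 7, Cd79a, Cd79b, Ms4a1, Blk, Cd22, Blnk and Pax5, lay below the filter, at 4.64 to 6.82 over the arrays. Cd79a, a defining part of the B cell receptor, was lowest in mouse B, where PD-L1-overexpressing targets gave 6.51 and PD-L1-depleted ones 6.35, against 6.55 and 6.66 in mouse A. Cd79b and Blk went the other way between these mice. In the same order of targets Cd79b was 6.48 and 6.44 in B and 6.26 and 6.32 in A. Blk was 6.05 and 5.90 in B and 5.50 and 5.67 in A. Ms4a1, Cd22, Blnk and Pax5 put A and B in a different order with each target. H2-Aa spread most of the 4, at 10.21 in mouse B and 6.77 in mouse A with PD-L1-overexpressing targets, and its mean passed the filter through the mice where it is high. The part of such cells in the order of the mice was not tested. The 3 tested markers of macrophages and dendritic cells had no common order, and 7 of 10 markers lay below the filter. With PD-L1-overexpressing targets Cst3 was 13.43 in A and 12.88 in B. Cd68 was lowest in A, at 7.51, and highest in C, at 8.07, with those targets. Csf1r did not pass limma's F test between mice (adjusted p = 0.193).

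**Figure D4:**
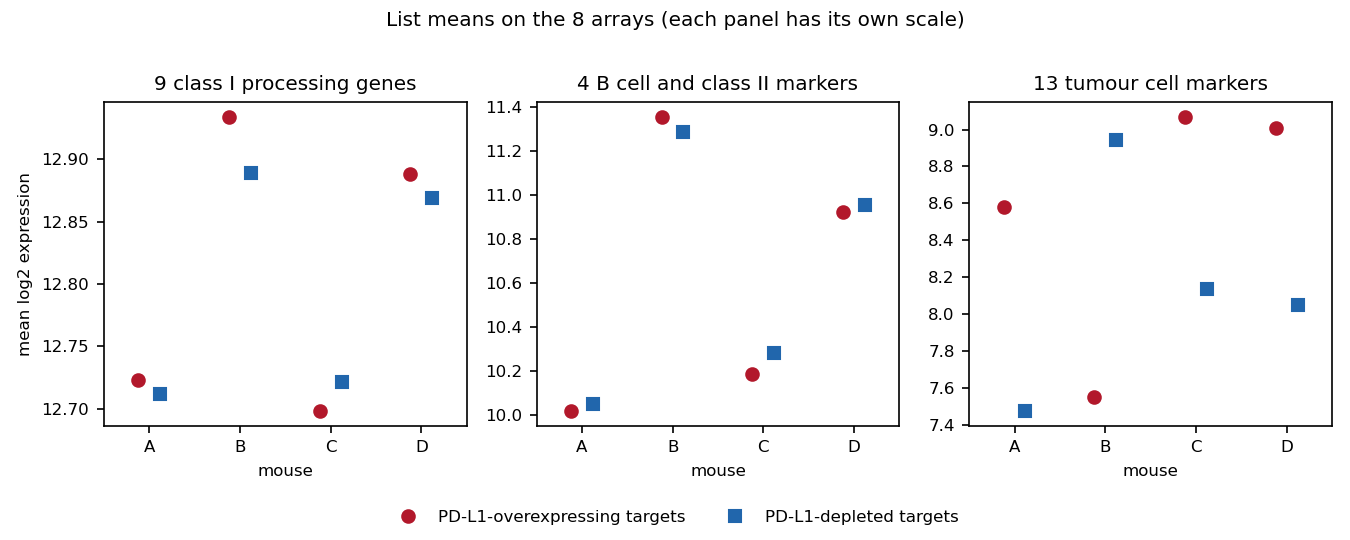
Mean log2 expression (y axis, a separate scale in each panel) of the 9 members, the 4 tested B cell and class II markers and the 13 tested tumour cell markers in mice A to D (x axis); red circles are arrays with PD-L1-overexpressing and blue squares arrays with PD-L1-depleted targets. The means of the members and of the B cell and class II markers are high in mice B and D on both arrays. The mean of the tumour cell markers splits by target, with mouse B opposite to A, C and D.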

How the data were processed

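The deposited values were log2 expression values, 1 per probe set and array of a 3' expression array. The scale was read from the values, since how the authors made them is not given in the sources used here. After sorting, the 8 arrays differed by at most 0.167 at any rank, so a shift shared by most genes could be hidden. After 64 control probe sets were left out, platform annotation gave 20380 probe sets 1 symbol, 691 several and 1555 none. A gene took its brightest probe set by mean. Those averaging below 6.87 (40th percentile of probe sets) were not tested.

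Fits used lmFit and trended eBayes of limma 3.58.1 (R 4.3.3). Tests were two-sided and adjusted over 8003 genes by Benjamini-Hochberg, at a threshold of 0.05. The mouse was a fixed block between targets, and the target a covariate between mice. The series design pairs the samples, and the titles name the mouse. The correlation over genes of both arrays' deviations was 0.824, 0.159, 0.610 and 0.635 for mice A to D. The 6 pairs of mice were adjusted 1 by 1. The steps were run on simulated data with planted effects and otherwise independent arrays, which does not test how they handle the pairing.

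All members are named, with up to 4 genes of each pathway list by the smallest p between mice, 2 by that between targets, and the 10 nearest profiles. Genes of marker lists are named as examples, chosen after their values were seen. Members, lists and tests were chosen with earlier results of these data known. Alternatives were other blocks, normalisations, filters, probe set rules, variance models, array weights, thresholds, a tumour marker covariate and leaving out each mouse. The number of arrays limits the precision.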

Additional observations from a re-analysis of the deposited data

Results flagged for a closer look

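In 164 sets of 4 arrays, 1 per mouse with the same target, the distance of the highest or lowest array from the nearest other was set against the whole range. That share was past Dixon's 95% critical value in 5 sets, where chance gives about 8.2, and in 0 of the 20 sets of members. With 4 values this finds only an array that stands alone. Lpl, a tumour cell marker, was lowest in mouse B with PD-L1-overexpressing targets, at 6.28 against 8.31 to 8.66 (0.852 of the range). Wt1, another, was highest in mouse B with PD-L1-depleted targets (0.838). The mean of the CD8 T cell markers was lowest in mouse A with PD-L1-depleted targets, at 12.38 (0.842). Tpp2, a cytosolic peptidase, was lowest in mouse A with PD-L1-depleted targets (0.934), and the chaperone Hspa5 was highest in mouse D with PD-L1-overexpressing targets (0.921).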

How the results depend on the processing

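Between targets 0 members passed under each alternative run, the fit with no replicate block and that with a random replicate block included. Of all tested genes 0 passed in these runs, except for 3 with the tumour marker covariate and 176 without mouse B. Among 144 alternative estimates of the members' differences the smallest adjusted p was 0.471, the estimates ran from -0.0229 to 0.0622, and 20, none past the threshold, had the opposite sign. Under quantile normalisation these were B2m (-0.000518), Psmb10 (-0.0068), Psmb8 (-0.00885) and Tap2 (-0.00572), with array weights B2m (-0.00232), H2-K1 (-0.00585) and Psmb8 (-0.00095), and with the mean of probe sets H2-K1 (-0.000758). Leaving out 1 mouse gave -0.00578 to 0.0102 for B2m, -0.0131 to 0.0171 for H2-K1, -0.0229 to 0.0336 for Psmb10, -0.0173 to 0.0187 for Psmb8, -0.0037 to 0.0440 for Psme1, -0.0145 to 0.0386 for Tap1 and -0.0211 to 0.0291 for Tap2. Between mice 5 to 8 members passed, 8 with the tumour marker covariate or without mouse B and 5 without mouse A. The share of all tested genes called moved with these, at 51.3% with the covariate, 44.4% without mouse B and 6.72% without mouse A, against 29.3%. Psmb9, Psmb10, Psme1 and Tap2 passed in each alternative run. Tapbp and H2-K1 also missed the threshold under quantile normalisation (adjusted p = 0.0882 and 0.0581) and in eBayes without a trend (0.118 and 0.242).

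In pairs of mice, eBayes without a trend called 3 members higher in D than in A, 1 higher in D than in C, and 0 higher or lower in C than in A. At a threshold of 0.01 the counts were 3 in D over A, 2 in D over C and 0 lower in C than in A. The last count was also 0 under quantile normalisation, with no filter and with all probe sets, and 0 to 2 when 1 mouse was left out, 0 without mouse D. The count higher in C than in A was then 1 to 2 and that higher in D than in C 4 to 7, the most without mouse B. For pairs of mice the share of all tested genes called was not counted in these runs. Of the 49 pathway genes 14 passed between mice at a threshold of 0.01, where 13.7% of all tested genes did. With 1 mouse left out 10 to 32 passed. The fewest were without mouse A, where 6.72% of all tested genes passed, and the most without mouse B, where 44.4% did. The causes were not tested.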
